A study of Mus musculus with 12 samples.

Results

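The S phase and mitosis genes were a set of 59 of the 31053 genes in the count table, of which 29 act in DNA replication (the S phase genes) and 30 in G2 and mitosis (the G2/M genes). They were picked by name for these roles and not by a measured value. Their RNA was followed in single cells from the striatum of wild type mice of a strain labelled as mixed, without any transgene, deletion or treatment. Astrocytes were enriched on ACSA2, an antigen on their surface, by magnetic sorting, and sequenced as droplet-based 3' libraries, in which each captured RNA molecule counts as 1 unique molecular identifier (UMI). The table used here held 4 libraries, 2 of them early postnatal and 2 from animals 3 months of age (3m), and any further preparations that the study describes were not analysed here. For the postnatal libraries the titles and the age tags named opposite days (P3 and P7), so both were kept as 1 postnatal group. By either label these 2 libraries differ in age. Between them, age and replicate cannot be told apart. Per the methods of the study, each preparation pooled several animals and left out the subventricular zone, the neural stem cell niche next to the striatum.

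A cell that divides first copies its DNA and then separates the copies. In S phase the MCM helicase unwinds DNA at origins, polymerases and the clamp PCNA copy it, and histone chaperones pack the new strands. Many of these genes are switched on by E2F factors once cyclin-dependent kinases have inactivated the retinoblastoma protein. In G2 and mitosis, CDK1 with its cyclins, the Aurora and Polo kinases, the kinetochores and the spindle divide the chromosomes, and the anaphase-promoting complex (APC/C) ends mitosis by marking its substrates for degradation. Promoters of this later group often carry CHR and CCAAT elements, bound by the MuvB complex with B-MYB or FOXM1 and by NF-Y, respectively. Astrocytes of the early postnatal brain are known to divide locally, whereas those of the healthy adult brain rarely do.

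The libraries held 651, 832, 1449 and 1313 barcodes in the order postnatal replicate 1, postnatal replicate 2, 3m replicate 1 and 3m replicate 2, which is the order used throughout. Totals lay between 7185335 and 11501049 UMIs per library. After the filters 555, 723, 1120 and 719 cells were used, with median depths between 7737.5 and 11644 UMIs. Cells were assigned to 9 classes by marker genes, and 387, 551, 314 and 299 cells passed the astroglia gate. The gate was near its limit for 44 of these 1551 cells, which carried a large part of some sums given further on. In the astroglia-gated sums the 10 astroglia markers, among them Slc1a3, Aldoc, Gja1 and Aqp4, were all detected, at 8887, 6187, 20598 and 21855 UMIs per 1000000 (CPM) in sum. The 9 oligodendrocyte markers stood at 252, 123, 876 and 487 CPM, with 3, 1, 0 and 0 of them at 0, and the 8 mural markers at 128, 154, 353 and 164 CPM. Foreign markers that were higher in the postnatal libraries were the 8 precursor markers, at 71.8, 89.9, 61.9 and 59.1 CPM with 2, 2, 1 and 2 at 0, and the 10 neuron markers, at 36.7, 35.7, 20.5 and 14.8 CPM with 3, 1, 3 and 4 at 0. The part of such foreign RNA in the results was not tested. Postnatal replicate 2 and 3m replicate 2 shared 95 barcodes, whereas the other pairs of libraries shared between 0 and 2. The member with fewer UMIs was dropped (82 in 3m replicate 2 and 13 in postnatal replicate 2), and the part sums, the counts of calls, the shares of cells and some of the leading genes are also given without any shared barcode, a setting chosen after seeing the data. Other levels of single genes are given with the larger members only. The setting without any shared barcode also leaves out deep cells. In postnatal replicate 2 the larger members had a median of 40324.5 UMIs, against 11644 over its cells used.

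In astroglia-gated cells both groups of genes were higher in the postnatal libraries, and the G2/M genes differed more than the S phase genes. The 29 S phase genes summed to 766 CPM (95% Poisson interval 739.6 to 793) and 1316 CPM (1291 to 1340) in the postnatal libraries. At 3m they summed to 354 CPM (330.0 to 379) and 289.9 CPM (269 to 311). The 30 G2/M genes summed to 979 CPM (949 to 1010) and 2150 CPM (2119.6 to 2181.7) in the postnatal libraries, against 83.6 CPM (72.3 to 96.2) and 83.9 CPM (73.1 to 95.9) at 3m. The groups did not overlap in either sum, and the postnatal replicates differed far beyond their counting intervals. The near equality of the G2/M sums at 3m rested on the gate and on 1 cell, which held 135 of the 216 G2/M UMIs of 3m replicate 2. With no margin in the gate the G2/M sums were 971, 2157, 84.2 and 469 CPM, and with a margin of 0.5 they were 531, 1798, 64.1 and 83.9 CPM. These intervals, like all others given here, cover counting error only. In sums over cells, fewer cells of a kind and less RNA per cell cannot be told apart.

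A handful of cells carried much of this signal. The 5 cells with the most G2/M UMIs held 58.2%, 32.6%, 58.2% and 68.1% of the G2/M UMIs of the astroglia-gated cells. Without the 5 cells of each library that had the most UMIs of all 59 genes, the G2/M sums were 448, 1526, 37.8 and 31.0 CPM and the S phase sums 672, 1269, 187 and 181 CPM, so that both groups still did not overlap. Without any shared barcode, the G2/M sum of postnatal replicate 2 fell to 424 CPM and that of 3m replicate 2 to 31.9 CPM, while the S phase sums became 847 and 189 CPM. The postnatal libraries remained above the 3m libraries in both sums, but postnatal replicate 2 was then below postnatal replicate 1 for the G2/M genes.

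**Figure D1:**
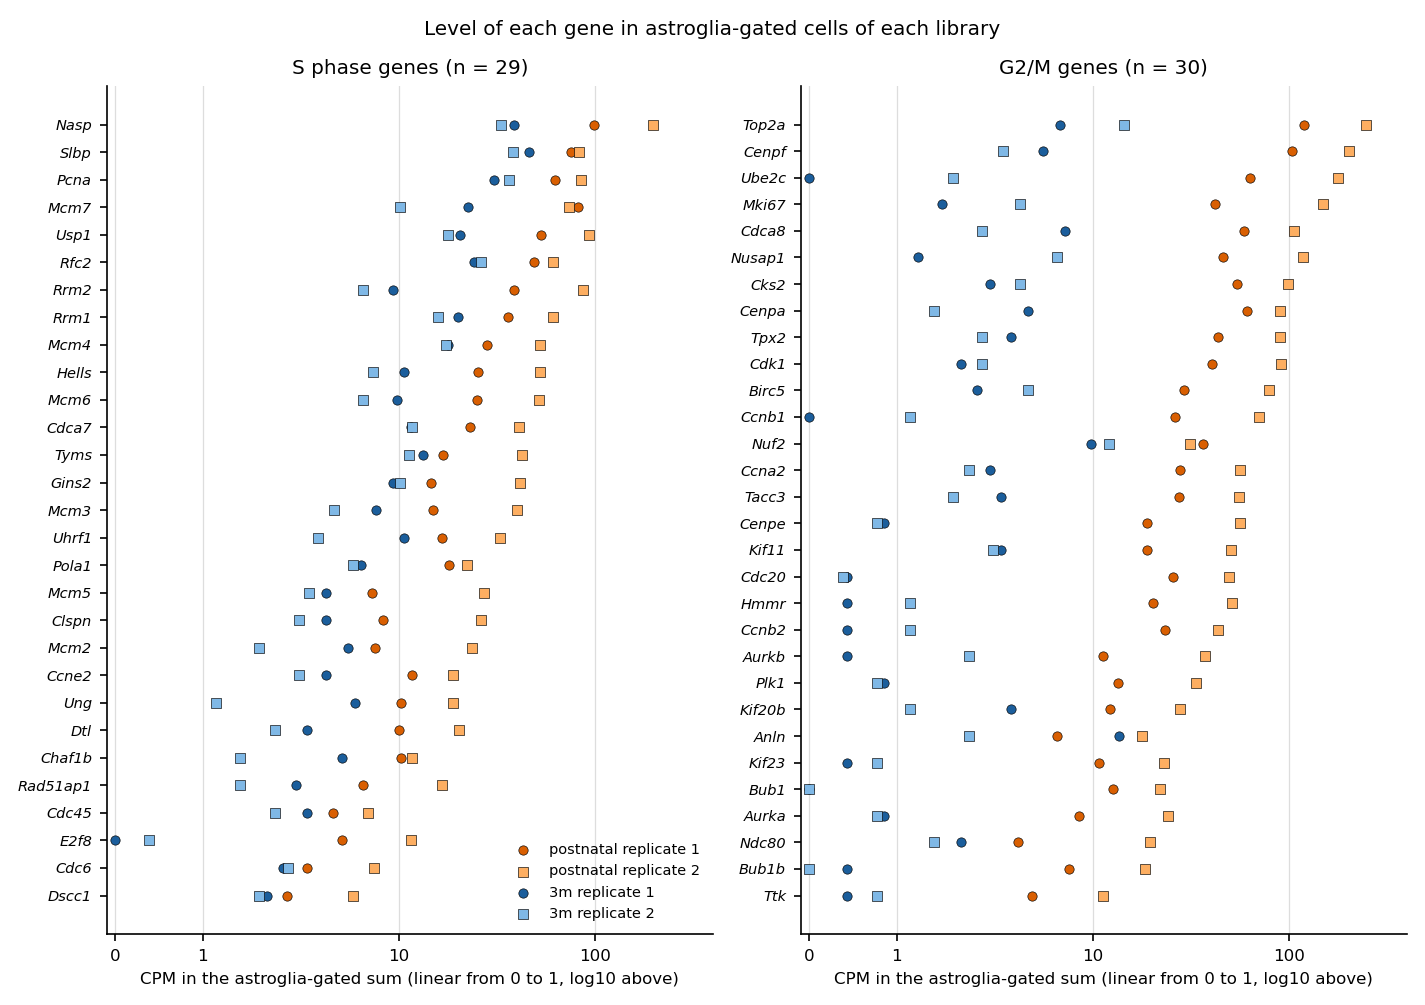
Level of each of the 59 genes in the astroglia-gated sums, with 1 point per library, as CPM on an axis that is linear from 0 to 1 and logarithmic (log10) above. All S phase genes had both postnatal points to the right of both 3m points, as did the G2/M genes except Anln.

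Each gene was tested between the ages on the astroglia-gated sums with edgeR's quasi-likelihood test, with p-values adjusted by the Benjamini-Hochberg method over all 11768 genes tested. To be called, a gene needed an adjusted p no higher than 0.05 and a log2 fold change (3m over postnatal) of 1 or more in size. Of the 59 genes, 58 passed the filter on low counts, and Dscc1 did not. Of these 58 genes, 43 were called, each lower at 3m, namely 15 of 28 S phase genes and 28 of 30 G2/M genes. Of all genes tested, 12.4% were called lower and 14.6% higher. The median log2 fold change was -1.70 over the S phase genes and -4.09 over the G2/M genes, with or without the gene at 0 in both 3m libraries set to its bound, against -0.00 over all genes tested. Genes that are nearly undetected at 3m passed the filter through the postnatal group alone. In CPM, both postnatal libraries were above both 3m libraries for 29 of 29 S phase genes and for 29 of 30 G2/M genes, where 50.0% of all tested genes showed that order. The S phase calls depended on single libraries, with 5 genes called without 3m replicate 1, 1 without 3m replicate 2 and 24 without postnatal replicate 1, while the share of all genes called lower moved likewise to 5.79%, 3.56% and 15.8%. The G2/M calls numbered 23, 21 and 29 in the same order, and 14 when cells near the edge of the gate were let in, which let in, among others, the 2 ungated cells of 3m replicate 2 described further on. Without a scaling factor the median of all genes moved to -0.29, calls over all genes turned from 46.0% lower to 64.3% lower, and 53 of the 58 genes were called. Without any shared barcode 38 genes were called, 12 S phase and 26 G2/M genes, of which 37 were among the 43, and both postnatal libraries were still above both 3m libraries for 29 of 29 and 29 of 30 genes.

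**Figure D2:**
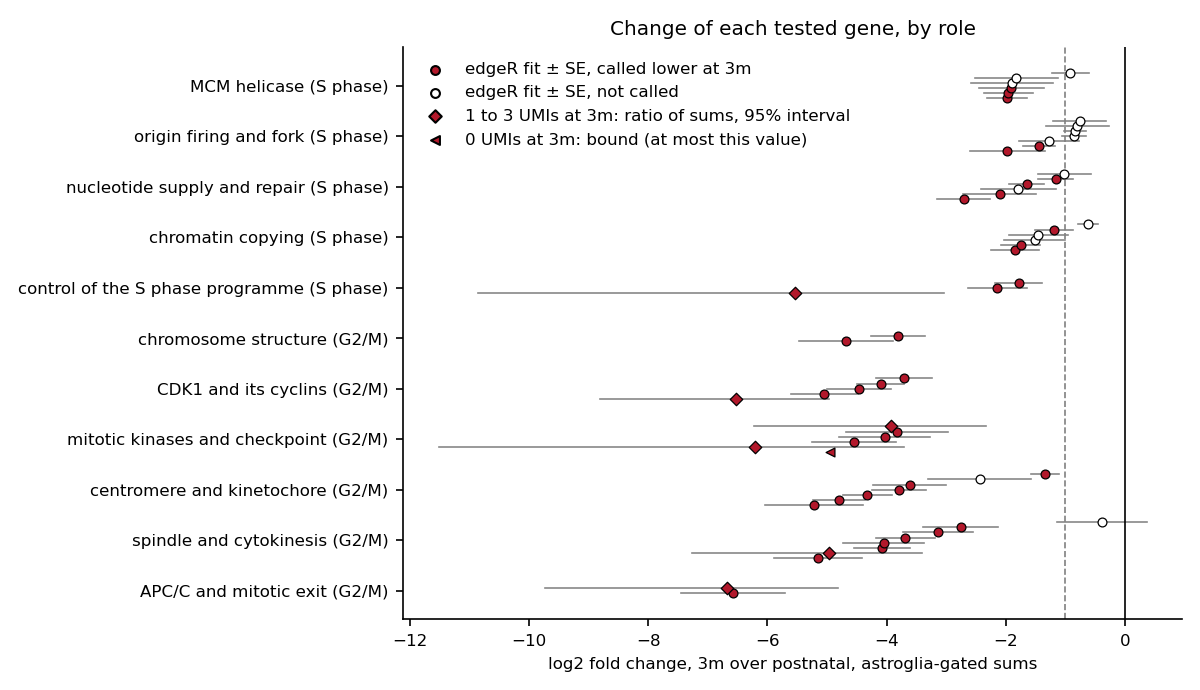
Log2 fold change (3m over postnatal) of the 58 tested genes in the astroglia-gated sums, grouped by role. Circles are edgeR estimates with their standard errors, diamonds are ratios of summed CPM with 95% intervals for genes with 1 to 3 UMIs at 3m, the triangle is the bound for Bub1 with 0 UMIs at 3m, and the dashed line marks a log2 fold change of -1. Most G2/M genes lie further to the left than the S phase genes other than E2f8, with Nuf2 and Anln nearest to 0.

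Among the S phase genes, 3 of the 6 helicase subunits Mcm2 to Mcm7 were called lower, against 12.4% of all genes tested. All 6 were lower in both 3m libraries than in both postnatal libraries, with a median log2 fold change of -1.90. Mcm7 stood at 82.1, 74.1, 22.6 and 10.1 CPM (log2 fold change -1.98, SE 0.33, edgeR adjusted p = 0.0063). It was the only member of the helicase with a higher level in postnatal replicate 1 than in replicate 2. Mcm4 was the subunit with the smallest difference, at 28.3, 52.6, 17.9 and 17.5 CPM (-0.92 ± 0.31, edgeR adjusted p = 0.058). Mcm2 (-1.82) and Mcm5 (-1.90) had estimates close to those of Mcm3 (-1.91) and Mcm6 (-1.96), which were called. Mcm2 and Mcm5 had a wider spread between the replicates, and their edgeR adjusted p-values were 0.0795 and 0.0677.

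Factors of origin firing and of the replication fork fell least, with 2 of 7 called and a median of -0.85. The clamp Pcna stood at 62.6, 85.4, 30.7 and 36.5 CPM and its loader subunit Rfc2 at 48.9, 61.2, 24.3 and 26.4 CPM. Their groups did not overlap, and both passed the p-value threshold (edgeR adjusted p = 0.0182 and 0.0145) but not the fold limit, at -0.85 ± 0.20 and -0.84 ± 0.18. The calls in this role were Pola1 (-1.44), the catalytic subunit of polymerase alpha, and the fork checkpoint mediator Clspn (-1.98). Gins2 (-1.27), Cdc6 (-0.80) and Cdc45 (-0.76), which load or complete the helicase, had edgeR adjusted p-values between 0.0895 and 0.264. Dscc1, a subunit of an alternative clamp loader, stood at 2.69, 5.83, 2.13 and 1.94 CPM and was not tested.

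Nucleotide supply and repair genes were called lower in 4 of 6 cases (median -1.72). Rrm2, the S phase subunit of ribonucleotide reductase, stood at 38.9, 87.4, 9.39 and 6.61 CPM and fell (-2.71 ± 0.45, edgeR adjusted p = 0.0063). It stood at 38.9, 18.6, 9.39 and 0.788 CPM without any shared barcode (-2.23, edgeR adjusted p = 0.0479), so that the order of the postnatal replicates turned. Its partner Rrm1 fell less, by 1.17 on the log2 scale. The deubiquitinase Usp1 stood at 53.0, 93.1, 20.5 and 17.9 CPM (-1.65 ± 0.29, edgeR adjusted p = 0.00762), and the DNA repair factor Rad51ap1 also fell (-2.10). Thymidylate synthase (Tyms, -1.02) and the uracil-DNA glycosylase Ung (-1.79) were not called, with edgeR adjusted p-values of 0.116 and 0.0636.

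Genes of chromatin copying were called lower in 3 of 6 cases (median -1.49). The histone chaperone Nasp was the most abundant S phase gene, at 98.5, 197, 38.8 and 33.4 CPM (-1.75 ± 0.33, edgeR adjusted p = 0.00887). The remodeller Hells (-1.85) and its partner Cdca7 (-1.19) were called as well. Slbp, which binds the stem-loop of histone mRNAs, had the smallest estimate of all S phase genes, at 75.3, 82.9, 46.1 and 38.5 CPM (-0.62 ± 0.16, edgeR adjusted p = 0.0251), under the fold limit. Uhrf1 (-1.52), which guides maintenance of DNA methylation, and the chromatin assembly subunit Chaf1b (-1.45) had edgeR adjusted p-values of 0.0546 and 0.0599.

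The 3 genes that control the S phase programme were all called. Cyclin E2 (Ccne2) stood at 11.7, 18.9, 4.27 and 3.11 CPM (-1.79 ± 0.39, edgeR adjusted p = 0.0145). Dtl, a substrate receptor of the CRL4 ubiquitin ligase, stood at 10.0, 20.4, 3.41 and 2.33 CPM (-2.14 ± 0.49, edgeR adjusted p = 0.0166). E2f8, an E2F repressor expressed late in S phase, had 21 and 99 UMIs in the postnatal sums and 0 and 1 UMIs at 3m, a ratio of CPM of 46.6 with a 95% counting interval of 8.20 to 1855.

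Summed by role, the G2/M genes were lower in both 3m libraries than in both postnatal libraries in each of the 6 roles, with Nuf2, Top2a and Anln the members that kept the most UMIs at 3m. Top2a, the topoisomerase that disentangles chromosomes, was the most abundant of them, at 120, 247, 6.83 and 14.4 CPM (-3.81 ± 0.46, edgeR adjusted p = 0.00262). Mki67, which encodes the proliferation marker Ki-67, stood at 41.8, 149, 1.71 and 4.27 CPM (-4.68 ± 0.79, edgeR adjusted p = 0.00672). Both postnatal levels of either gene were above both 3m levels, although the postnatal replicates differed from each other by more than the 3m replicates did in CPM. Much of the level of postnatal replicate 2 came from cells with shared barcodes. Without them Top2a stood at 120, 37.7, 6.83 and 0 CPM, Mki67 at 41.8, 38.6, 1.71 and 0 CPM, Cdk1 at 40.6, 20.7, 2.13 and 0 CPM, Cenpf at 104, 39.9, 5.55 and 1.97 CPM and Ube2c at 63.1, 21.7, 0 and 0 CPM, so that postnatal replicate 1 was then the higher of the pair for each of these genes.

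CDK1 and its partners were called lower in 5 of 5 cases (median -4.47). Cdk1 stood at 40.6, 91.3, 2.13 and 2.72 CPM (-4.47 ± 0.53, edgeR adjusted p = 0.00259), and the small CDK subunit Cks2 at 54.5, 98.9, 2.99 and 4.27 CPM (-4.10 ± 0.40, edgeR adjusted p = 0.00169). Cyclin B1 (Ccnb1) had 107 and 605 UMIs in the postnatal sums and 0 and 3 UMIs at 3m, a ratio of 92.1 (31.4 to 448). Cyclin A2 (Ccna2) fell by 3.70 and cyclin B2 (Ccnb2) by 5.05 on the log2 scale. These estimates rest on 7 and 6 UMIs of Ccna2 and 1 and 3 UMIs of Ccnb2 at 3m.

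All 6 mitotic kinases and checkpoint genes were called (median -4.29). The checkpoint kinase Bub1 was the only gene of the set with 0 UMIs in both 3m sums, against 52 and 188 UMIs in the postnatal sums, which made it at least 31.1-fold higher in the postnatal group, with the limit set at 3 UMIs over the 3m group, and at least 11.8-fold higher without any shared barcode. Its relative Bub1b had 31, 159, 1 and 0 UMIs, a ratio of 73.8 (13.1 to 2929), and the kinase Ttk, which recruits both to kinetochores, had a ratio of 15.1 (5.05 to 74.5). Aurkb, the kinase of the chromosomal passenger complex, stood at 11.2, 37.6, 0.427 and 2.33 CPM (-3.82 ± 0.86, edgeR adjusted p = 0.0157). Plk1, the Polo-like kinase, stood at 13.4, 33.5, 0.853 and 0.777 CPM (-4.55 ± 0.71, edgeR adjusted p = 0.00516). The 3m sums held 1 and 6 UMIs of Aurkb and 2 and 2 UMIs of Plk1, so both estimates rest on few molecules.

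Centromere and kinetochore genes were called lower in 6 of 7 cases (median -3.79). Cenpf, which binds the outer kinetochore, stood at 104, 202, 5.55 and 3.50 CPM (-4.80 ± 0.43, edgeR adjusted p = 0.00151), and the passenger complex subunit Cdca8 at 59.1, 107, 7.25 and 2.72 CPM (-3.79 ± 0.46, edgeR adjusted p = 0.00261). The 2 members of the NDC80 complex that were in the set stood apart. Nuf2 kept 9.81 and 12.05 CPM at 3m, against 36.4 and 31.3 CPM in the postnatal libraries, the smallest of the called G2/M differences (-1.34 ± 0.24, edgeR adjusted p = 0.0075), and without any shared barcode it was no longer called (-0.93). Its partner Ndc80 stood at 4.15, 19.5, 2.13 and 1.55 CPM and was not called (-2.44 ± 0.86, edgeR adjusted p = 0.0648).

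Spindle and cytokinesis genes were called lower in 7 of 8 cases (median -3.87). The spindle assembly factor Tpx2 stood at 43.7, 90.3, 3.84 and 2.72 CPM (-4.07 ± 0.47, edgeR adjusted p = 0.00243) and the microtubule bundling protein Nusap1 at 45.9, 117, 1.28 and 6.61 CPM (-4.05 ± 0.68, edgeR adjusted p = 0.0064). The central spindle kinesin Kif23 had a ratio of 31.4 (10.6 to 154) from 3 UMIs at 3m. The exception was Anln, which encodes the cleavage furrow scaffold anillin (chromosome 9, 22332012 to 22389188 on the minus strand, GRCm38). It stood at 6.60, 17.7, 13.7 and 2.33 CPM, so that the groups overlapped (-0.39 ± 0.75, edgeR adjusted p = 0.707). Its direction turned positive without postnatal replicate 2, without 3m replicate 2, without the top 5 cells or without any shared barcode.

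The 2 genes that drive exit from mitosis were both called (median -6.37). Ube2c, the E2 enzyme of the APC/C, had 63.1 and 178 CPM in the postnatal sums and 0 and 1.94 CPM at 3m, or 5 UMIs in all (-6.58 ± 0.87, edgeR adjusted p = 0.00345). Cdc20, the activator of the APC/C, had 105 and 423 UMIs in the postnatal sums and 1 UMI in each 3m sum, a ratio of 102 (28.2 to 849). The ratios of genes with few UMIs at 3m, taken without any shared barcode, were smaller or had wider intervals, at 41.0 (11.2 to 341) for Cdc20, 39.99 (10.9 to 333) for Ccnb1, 25.5 (4.38 to 1027) for Bub1b, 6.87 (1.73 to 59.5) for Ttk and 31.4 (5.44 to 1259.6) for Kif23, and E2f8, then at 0 in both 3m sums, was at least 5.56-fold higher in the postnatal group.

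The promoters of these genes were read to show what letters the falling groups share. Windows of 250 bases before to 50 bases after the start of the RefSeq entry (GRCm38.p6) matched 50 of the 59 genes, 23 of the S phase and 27 of the G2/M group. Searched on both strands were the letters of the CHR (TTTGAA as the usual form and also the variant TTCGAA), of the CCAAT box, spelled as its name, and of E2F sites (TTTCGCGC, TTTGGCGC, TTTCCCGC or TTTGGCGG, which can overlap each other on opposite strands). The 200 bases before the start are shown, on the strand of the gene and 5′ to 3′, for the 3 G2/M genes Cdc20, Ube2c and Cdk1, of which the first pair are the APC/C genes described above, and for the helicase subunits Mcm6 and Mcm5. They were chosen after the matches had been seen. Capitals mark matches of any of the 3 motifs, with overlapping matches joined.
Cdc20 (chr4:118437344-118437543, minus strand): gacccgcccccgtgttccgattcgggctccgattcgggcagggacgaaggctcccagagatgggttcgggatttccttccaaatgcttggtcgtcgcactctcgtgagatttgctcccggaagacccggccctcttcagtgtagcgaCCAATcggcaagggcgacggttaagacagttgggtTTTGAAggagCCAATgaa
Ube2c (chr2:164769729-164769928, plus strand): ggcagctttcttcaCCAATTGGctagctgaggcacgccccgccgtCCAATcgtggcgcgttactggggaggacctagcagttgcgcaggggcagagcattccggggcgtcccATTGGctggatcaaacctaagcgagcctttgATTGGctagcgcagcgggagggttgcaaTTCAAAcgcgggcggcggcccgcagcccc
Cdk1 (chr10:69352913-69353112, minus strand): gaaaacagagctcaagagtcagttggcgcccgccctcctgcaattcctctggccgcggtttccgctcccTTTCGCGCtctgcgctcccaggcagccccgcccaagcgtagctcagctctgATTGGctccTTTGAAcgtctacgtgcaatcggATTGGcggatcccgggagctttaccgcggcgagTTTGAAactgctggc
Mcm6 (chr1:128359706-128359905, minus strand): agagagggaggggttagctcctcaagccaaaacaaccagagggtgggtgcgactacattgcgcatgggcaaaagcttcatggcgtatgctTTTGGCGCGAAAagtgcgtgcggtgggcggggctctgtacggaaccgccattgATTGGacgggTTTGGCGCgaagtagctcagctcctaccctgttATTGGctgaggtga
Mcm5 (chr8:75109309-75109508, plus strand): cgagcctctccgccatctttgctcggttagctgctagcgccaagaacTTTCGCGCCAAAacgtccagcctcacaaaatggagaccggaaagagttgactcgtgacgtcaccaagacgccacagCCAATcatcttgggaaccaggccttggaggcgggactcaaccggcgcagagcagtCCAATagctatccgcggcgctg
In Cdc20 the CHR letters lay 18 to 13 bases before the start, after a CCAAT match. In Ube2c a CHR match on the other strand lay 29 to 24 bases before the start, behind a run of CCAAT matches. Cdk1 held 2 CHR matches and an E2F match. In Mcm6 and Mcm5 the E2F letters were matched on both strands at overlapping positions.

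CHR letters were held by 20 of 27 G2/M windows (74.1%) and by 5 of 23 S phase windows (21.7%), against 19.4% of the windows of all 27025 genes. E2F letters were held by 10 of 23 S phase windows (43.5%) and by 1 of 27 G2/M windows (3.70%), that of Cdk1, against 2.42% of all genes. CCAAT letters were equally frequent in both groups, at 73.9% of the S phase and 74.1% of the G2/M windows, and were held by 37.9% of all genes. CHR and CCAAT letters were held together by 63.0% of the G2/M, 21.7% of the S phase and 7.70% of all windows. The median GC content was 58.3% in the S phase, 60.7% in the G2/M and 52.7% in all windows. A match is a description of letters and not a measured binding site.

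**Figure D3:**
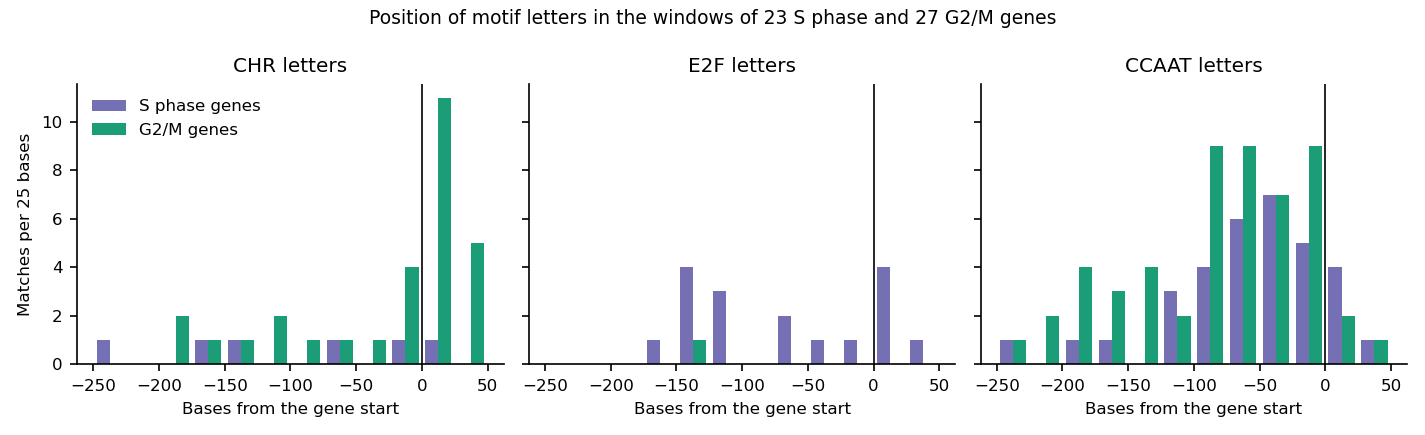
Number of motif matches per 25 bases of distance from the gene start (x axis, in bases, with the start at 0) in the windows of 23 S phase genes (purple) and 27 G2/M genes (green). CHR matches of G2/M genes were most frequent just after the start, E2F matches came almost all from S phase genes, and CCAAT matches of both groups lay mainly in the 100 bases before the start.

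The other genes of the cell cycle machinery were read from a list of 98 genes, of which 89 were tested. Of these, 27 were called lower and 2 higher, beside the 12.4% and 14.6% of all genes tested, and the median was -0.75. The count of called genes was 46 without postnatal replicate 1, 17 without 3m replicate 1 and 6 without 3m replicate 2, where 33.3%, 13.7% and 9.60% of all genes were called in either direction. Called lower were 5 of 7 G1 cyclins and CDKs, 1 of 5 CDK inhibitors and 1 of 8 RB and E2F family genes. So were 2 of 7 genes of the MuvB, B-MYB and FOXM1 group and 3 of 9 licensing genes. In other roles the counts were 8 of 22 further replication fork genes and 3 of 13 condensin and cohesin genes. The last role, of APC/C, CDC25 and WEE1 genes, had 4 of 18 called lower.

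The genes of G1 did not move in 1 direction. Cyclin D2 (Ccnd2) stood at 501, 884, 218 and 80.8 CPM and fell (-1.92 ± 0.49, edgeR adjusted p = 0.0228), a call that was lost without 3m replicate 2 (-1.37, edgeR adjusted p = 0.103) and moved to -2.79 without 3m replicate 1. In contrast, cyclin D1 (Ccnd1) stood at 173, 214, 314 and 329.9 CPM and rose (1.02 ± 0.17, edgeR adjusted p = 0.00638). The estimate of Ccnd1 was near the fold limit, was positive in all 17 settings, between 0.73 and 1.36, and was called in 11 of them. In whole libraries Ccnd1 stood at 257, 242, 1790.5 and 1667 CPM, and the oligodendrocyte markers in the astroglia-gated sums were also higher at 3m (252, 123, 876 and 487 CPM), whose part in this result was not tested. Their kinase partner Cdk4 fell by 1.66 and cyclin E1 (Ccne1) by 2.41 on the log2 scale.

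The brakes on the cycle differed likewise. Rb1, the retinoblastoma protein that holds E2F factors in check, stood at 78.7, 63.3, 224 and 215 CPM, rose at 3m (1.91 ± 0.18, edgeR adjusted p = 0.00158) and was called in all 17 settings. Its relative Rbl1 fell (-2.01). Of the CDK inhibitors, Cdkn2c fell (-1.47), Cdkn1b had an estimate under the fold limit (-0.76 ± 0.15, edgeR adjusted p = 0.00962), and Cdkn1a, at 8.06, 3.50, 5.97 and 3.50 CPM, overlapped between the groups (0.05 ± 0.57, edgeR adjusted p = 0.957). Cdkn1c was not tested and stood at 5.13, 2.57, 1.71 and 0 CPM.

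Single regulators of G2 and of origin firing were called lower, although most genes of their roles were not. Foxm1, which activates G2/M genes, had a ratio of 41.9 (7.37 to 1671) from 1 UMI at 3m, and the CDK1 phosphatase Cdc25c a ratio of 47.8 (8.41 to 1901), also from 1 UMI. The MuvB subunit Lin9 fell by 1.43 on the log2 scale. Dbf4 and Cdc7, the regulator and the kinase that fire origins, fell by 4.11 and 2.72, and the DNA ligase Lig1 fell by 1.83. The clamp loader subunit Rfc5 fell by 2.02. Condensin subunits Smc4 and Ncaph fell by 2.55 and 3.59, and the APC/C subunit Anapc5 fell by 1.29.

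The genes were next counted per cell, to see how many astroglia-gated cells carried them. Each cell was thinned to 2000 UMIs, which left out 68, 35, 31 and 38 shallower cells. At least 3 S phase UMIs were found in 42 of 319 (13.2%, 95% Clopper-Pearson interval 9.66 to 17.4), 95 of 516 (18.4%, 15.2 to 22.0), 9 of 283 (3.18%, 1.46 to 5.95) and 4 of 261 cells (1.53%, 0.419 to 3.88). At least 3 G2/M UMIs were found in 21 (6.58%, 4.12 to 9.89), 53 (10.3%, 7.79 to 13.2), 4 (1.41%, 0.386 to 3.58) and 1 cell (0.383%, 0.00970 to 2.12). The groups did not overlap in either share. The differences of the group means, 3m minus postnatal, were -13.4 percentage points for S phase and -7.53 points for G2/M, and 3m was lower in both replicates. For each of them the exact two-sided permutation test over libraries gave p = 0.333, the smallest that 2 against 2 libraries allow. Without thinning the shares were 52.2%, 80.0%, 19.1% and 23.1% for S phase and 14.7%, 20.7%, 2.23% and 1.67% for G2/M. Without any shared barcode the S phase shares were 13.2%, 13.7%, 3.18% and 1.15%, with a difference of -11.3 points. The G2/M shares were then 6.58%, 4.19%, 1.41% and 0 of 260 cells, which allows up to 1.15%, with a difference of -4.68 points, and postnatal replicate 2 was below postnatal replicate 1.

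As a background, the same shares were taken in oligodendrocyte-gated cells, which do not divide, at 3m, where the median depths before thinning were 9049 and 13308 UMIs, against 6035 and 8441 UMIs in astroglia-gated cells. There, at least 3 S phase UMIs were found in 2.28% and 3.42% of cells, against 3.18% and 1.53% in astroglia-gated cells at 3m. The background held genes that these cells express at higher levels, however. Without Pcna, Rfc2 and Usp1, a choice made after seeing the data, the background was 0.351% (0.0426 to 1.26) and 1.03% (0.212 to 2.97), against 2.12% (0.782 to 4.56) and 1.15% (0.238 to 3.32) in 3m astroglia-gated cells and 8.46% and 15.1% in postnatal ones. The differences from the background were not tested. Among the 3m astroglia-gated cells, 3 and 1 had 10 or more S phase UMIs, with up to 18 and 14. Without any shared barcode these cells numbered 3 and 0. For the G2/M genes other than Anln the background was 0.176% in 3m replicate 1 and 0 of 292 cells in 3m replicate 2, which allows a share of up to 1.03%, against 1.41% and 0.383% in astroglia-gated cells. These rest on 4 and 1 astroglia-gated cells, and the difference from the background was not tested. For the postnatal libraries the background held too few cells to be used, since 10 and 0 cells were oligodendrocyte-gated. In postnatal replicate 1, 1 of 9 thinned cells (11.1%, 0.281 to 48.2) reached the S phase limit and 0 of 9 the G2/M limit.

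**Figure D4:**
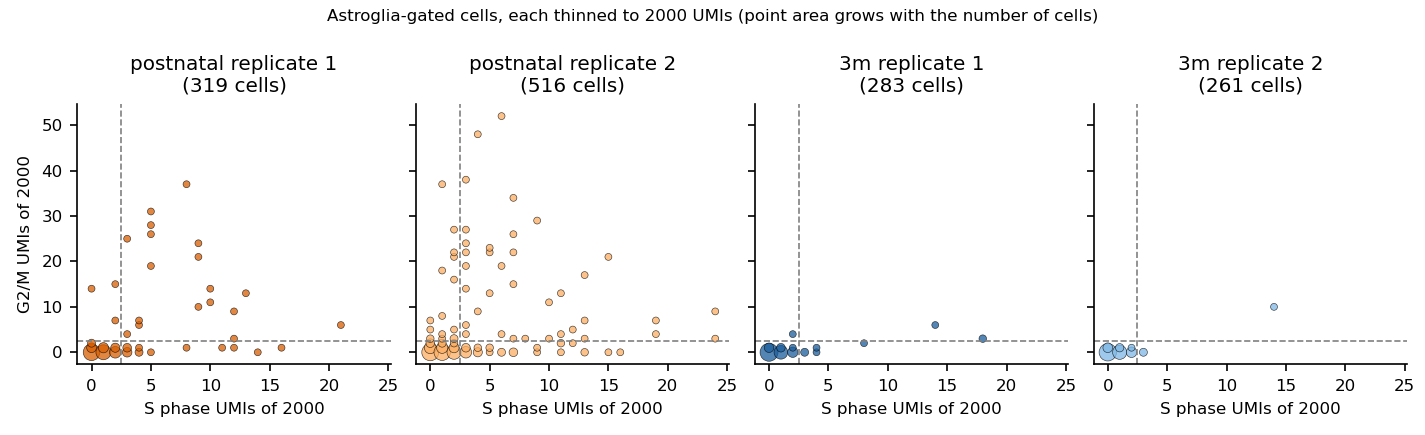
S phase UMIs (x axis) and G2/M UMIs (y axis) of astroglia-gated cells thinned to 2000 UMIs, with 1 panel per library and a larger point for more cells at the same place. Dashed lines mark the limit of 3 UMIs. Gated cells with 20 or more G2/M UMIs are seen in the postnatal panels but not in the 3m panels. Cells short of the gate are not shown.

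Cells at or above the limit for S phase genes alone numbered 24, 59, 6 and 3, those at or above it for both groups 18, 36, 3 and 1, and those for G2/M genes alone 3, 17, 1 and 0. Without any shared barcode the numbers of postnatal replicate 2 became 53, 9 and 10 and those of 3m replicate 2 became 3, 0 and 0, so that the order of the last pair of classes in postnatal replicate 2 rested on cells with shared barcodes. Cells with 20 or more G2/M UMIs among their 2000 numbered 7 and 17 in the postnatal libraries and 0 and 0 at 3m, where the highest counts were 6 and 10. Without any shared barcode the postnatal numbers were 7 and 2. All these counts leave out cells short of the gate. Of those that scored highest for astroglia, a cell of 3m replicate 2 had 19952 CPM of G2/M genes other than Anln. A cell of 3m replicate 1 had 6211 CPM. Before thinning, postnatal cells at the G2/M limit were deeper than cells below both limits, with medians of 15387 and 32414 UMIs against 10815 and 12057 UMIs.

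In 3m replicate 2, 5 cells held 80.6% of the G2/M UMIs of the whole library other than those of Anln, against 30.6% in 3m replicate 1, where 24.2% of cells had such a UMI. The highest count in any 3m cell was 856 UMIs, or 19952 CPM, in a cell of 3m replicate 2 that fell short of the astroglia gate (margin 0.227, where 0.25 was needed) and had 42904 UMIs. The next were cells of the same library with 192 and 134 such UMIs, the latter astroglia-gated. The barcodes of all 3 were also found in postnatal replicate 2. In each case the 3m member had more UMIs. The 13 dropped members in postnatal replicate 2 had a median of 623 UMIs. In 3m replicate 1 the highest counts were 79, 43 and 38 UMIs, in cells whose barcodes were not shared.

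The genes whose counts followed the set most closely over single cells were sought among 5646 genes detected in at least 5% of thinned postnatal astroglia-gated cells, over 319 and 516 cells and ranked by the lower of the 2 Pearson correlations. With the S phase sum these were Pclaf (0.453 and 0.482), Lig1, Hist1h1b, Hmgb2, H2afz, Lmnb1, Stmn1, Prc1, Ptma and Tubb5. With the G2/M sum they were Prc1 (0.722 and 0.756), Hmgb2, Pbk, H2afz, Lmnb1, Stmn1, Hist1h1b, H2afx, Pclaf and Lockd. Among them are the PCNA-binding factor Pclaf, the linker histone Hist1h1b and the histone variants H2afz and H2afx, the spindle midzone protein Prc1 and the lamin Lmnb1, and 7 genes were on both lists. The correlations within a library share its depth and are given as a description.

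Outside astroglia, the postnatal excess in summed CPM was seen in each gate that held cells at both ages and at least 7 cells per library. The larger members of shared barcodes were kept for this. In oligodendrocyte precursor-gated cells (66, 7, 45 and 7 cells) the G2/M genes summed to 2568, 6607, 66.9 and 21.1 CPM and the S phase genes to 1171, 1624, 532 and 421 CPM. In mural-gated cells (23, 33, 69 and 53 cells) the G2/M genes summed to 725, 3002, 22.1 and 40.5 CPM and the S phase genes to 907, 1473, 346 and 327 CPM. In cells passing the endothelial gate (13, 7, 35 and 29 cells) the G2/M genes summed to 1682, 1661, 36.0 and 61.1 CPM and the S phase genes to 819, 1327, 367 and 424 CPM, but none of the 8 endothelial markers was among the 10 leading genes of the postnatal cells in that gate. These sums rest on few cells, since the top 5 cells held 85.4% and 99.8% of the postnatal G2/M UMIs in the precursor gate, 96.9% and 96.7% in the mural gate and 98.6% and all in the endothelial gate. Without any shared barcode, postnatal replicate 2 moved to 758 CPM of G2/M genes in the mural gate (31 cells) and to 163 CPM in the endothelial gate (3 cells), and its S phase sums there to 1718 and 489.5 CPM, while the precursor gate held no shared barcode. Without shared barcodes, few genes of the endothelial gate had both postnatal libraries above both 3m libraries. These were 1 of 30 G2/M and 5 of 29 S phase genes. Median depths in that gate, with the larger members kept, were 41855, 44279, 6348 and 5824 UMIs. No test was run on the sums of these gates. Among the postnatal neuron-gated cells, the 5 of replicate 1 had 9661 CPM of G2/M genes and the 7 of replicate 2 had 69.2 CPM.

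**Figure D5:**
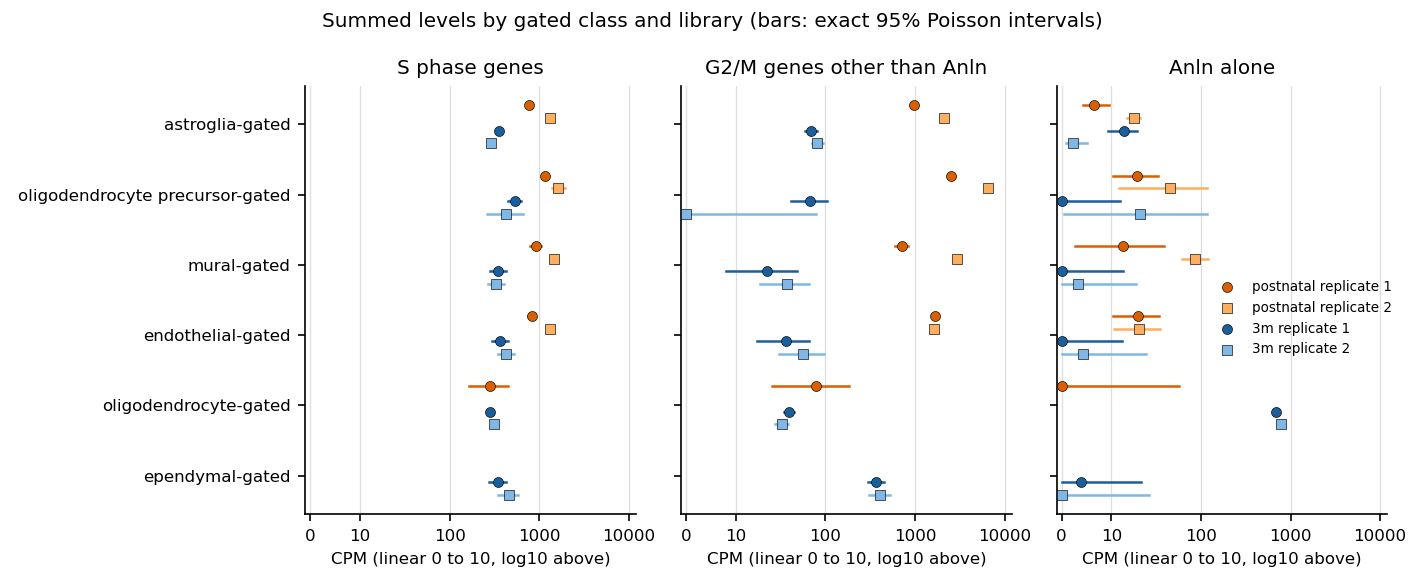
Summed CPM of the S phase genes, of the G2/M genes other than Anln, and of Anln alone in 6 marker-gated classes, with 1 point per library, exact 95% Poisson intervals as bars, and an axis that is linear from 0 to 10 and logarithmic (log10) above. With the larger members of shared barcodes kept, sums of precursor-, mural- and endothelial-gated cells show the same order of ages as astroglia. Anln is highest in 3m oligodendrocyte-gated cells.

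Individual genes of the set were high in non-dividing classes at 3m. Anln stood at 681 CPM (95% interval 659 to 702) and 777 CPM (751 to 803) in 3m oligodendrocyte-gated cells, of which 89.5% and 93.6% had a UMI. The remaining 29 G2/M genes summed to 39.2 and 32.5 CPM in the same cells, and Top2a had 0 UMIs in both libraries. With these cells in the sum, Anln stood at 12.01, 19.4, 408 and 429 CPM in the whole libraries.

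Nuf2 (chromosome 1, 169497934 to 169531464 on the minus strand, GRCm38) stood at 279 CPM (218 to 351) and 324 CPM (236 to 433) in 3m ependymal-gated cells, the ciliated cells that line the ventricles, where 14 of 14 and 8 of 9 cells had a UMI. All 30 G2/M genes together summed to 372 and 409.9 CPM there, while Top2a had 0 UMIs in both libraries. Rfc2 stood at 96.9 and 101 CPM in the same cells, above its 24.3 and 26.4 CPM in astroglia-gated cells at 3m. In 3m oligodendrocyte-gated cells, Pcna stood at 52.9 and 77.3 CPM and Rfc2 at 50.7 and 56.4 CPM.

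Over whole libraries, all 59 genes were tested and 55 were called, 54 lower and Anln higher. These were 25 S phase genes and 29 G2/M genes lower, where 13.4% of 14282 genes tested were called lower and 15.8% higher. The medians were -2.21 and -3.63. Without any shared barcode 24 S phase and 28 G2/M genes were called lower. Anln had a log2 fold change of 4.86 (edgeR adjusted p = 0.000175). The 4 genes not called were Mcm4 (-0.83), Pcna (-0.39), Rfc2 (-0.10) and Usp1 (-0.97). Pcna, Rfc2 and Usp1, the last at 34.4 and 34.1 CPM, were the S phase genes with the highest mean level in 3m oligodendrocyte-gated cells. Oligodendrocyte-gated cells were 51.7% and 41.0% of the 3m cells, against 1.80% of postnatal replicate 1 and 0 of 723 cells of postnatal replicate 2, which allows up to 0.415%, so the whole-library comparison mixes classes whose shares differed.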

How the data were processed

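The data were raw UMI counts, deposited by the authors as 1 table of 31053 genes and 4245 barcodes, in which the 12 sequencing runs of the labels were already merged into 4 libraries (4 and 2 runs for replicates 1 and 2 of either age). The submitters' processing notes name Cell Ranger, Seurat 3.1.1 and the build mm10, and the methods of the study name the count function of Cell Ranger, run with a preset number of expected cells, and a later Seurat version for merging. The table had 0 unused columns. Barcodes held at least 500 UMIs, and depth is given per library beside the results.

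Cells were kept with at most 10% mitochondrial UMIs and at least 500 genes, and the member with fewer UMIs of each barcode shared by postnatal replicate 2 and 3m replicate 2 was dropped. No doublet caller was run. A cell was assigned to the class of 9 with the highest mean natural log of 1 plus UMIs per 10000 over its markers, if at least 3 markers were detected and the margin to the next class was at least 0.25. This scoring was chosen after seeing the data. UMIs were summed per class and library and tested, 2 against 2 libraries, with edgeR 4.0.16 (TMM scaling, filterByExpr, quasi-likelihood F test, Benjamini-Hochberg adjustment over all genes) in R 4.3.3. Nothing in the labels says that the replicates came from separate animals beyond the pooled preparations, so p-values measure the spread between these libraries. For the postnatal pair this spread includes any difference in age. DESeq2 1.42.0 (highest normalised count at least 10) was an alternative. Per-cell counts were thinned to 2000 UMIs, and shares were compared with the exact permutation test in scipy 1.17.1. Python 3.11.15, numpy 2.4.6, pandas 2.3.3 and matplotlib 3.10.9 were used, and the scripts were tested on simulated data. Other alternatives were another scaling, filter, limit, depth or gate margin, leaving out each replicate, and the exclusion of every shared barcode, of Anln or of Pcna, Rfc2 and Usp1, the last 3 chosen after seeing the data.

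Genes were named by a rule: in each role the 2 most abundant, in each group the 3 with the largest and the 3 with the smallest fold change, every member not called lower, and leading genes of the pathway list. A few others were named after their values were seen. The labels do not say that a replicate number marks a shared litter or day, so the main test has no block. Positions are those of GENCODE vM21 (GRCm38). The members and lists were chosen with earlier results of these data known.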

Additional observations from a re-analysis of the deposited data

Results flagged for a closer look

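Barcodes outside the comparisons also carried G2/M genes, given here as CPM of the 29 G2/M genes other than Anln. The 82 dropped members of shared barcodes in 3m replicate 2 stood at 4302 CPM, against 190.3 CPM in the cells used of that library, and their partners in postnatal replicate 2 stood at 4316 CPM. The dropped members had a median of 709 UMIs and their partners one of 40324.5 UMIs. The 13 dropped members in postnatal replicate 2 stood at 2200.2 CPM, against 1993 CPM in the cells used, and their partners in 3m replicate 2 at 2317 CPM. Barcodes that failed the cell filter stood at 869 and 855 CPM in the postnatal libraries (96 and 96 barcodes), against 1360.1 and 1993 CPM in the cells used. At 3m they stood at 54.8 and 63.6 CPM (329 and 512 barcodes), against 68.6 and 190.3 CPM in the cells used. The cause was not tested.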

How the results depend on the processing

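With 2 libraries per age, the calls depended on single libraries. Leaving out each replicate gave 22 to 53 called genes of the set in astroglia-gated sums (43 with all libraries), 1 to 24 S phase genes, 21 to 29 G2/M genes, 6 to 46 other cell cycle genes, and 51 to 57 genes in whole-library sums. The left-out arm's lone library is assumed to vary like the other group. Letting cells in without a margin gave 25 genes, of which 14 were G2/M genes. Without a scaling factor 24 S phase and 44 other cell cycle genes were called, and without the top 5 cells 23 S phase genes. The difference in S phase shares (-13.4 points) was -27.0 at a limit of 1 UMI, -6.79 at 5 UMIs, -5.91 and -33.1 when thinned to 1000 and 5000 UMIs, and -45.0 without thinning. The G2/M difference (-7.53 points) was -16.6 at a limit of 1 UMI, -15.8 without thinning and -4.68 without any shared barcode, chosen after seeing the data. Leaving out replicates moved them from -16.1 to -10.8 and from -9.37 to -5.68 points. The log2 fold change of Anln in astroglia-gated sums lay between -2.10 and 0.48 with a replicate left out, at 0.076 without the top 5 cells and at 0.58 without any shared barcode. That of Rfc2 in whole-library sums lay between -0.21 and 0.0030 with a replicate left out. The cause was not tested. DESeq2 called 46 genes of the set.

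With the replicate block, 45 genes of the set were called, 16 S phase and 29 G2/M genes, 29 other cell cycle genes and 55 genes in whole libraries. The replicates' deviations from their group means correlated at 0.0118 in astroglia-gated and 0.181 in whole-library sums over only 2 pairs, which cannot show whether the numbers pair the libraries. Libraries of the same number also had the same number of runs (4 or 2), and those numbered 2 shared 95 barcodes. Tests in precursor- and endothelial-gated sums were not run, since a library there held under 10 cells (7 in each case).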
